A study of Mactra quadrangularis with 6 samples.

Results

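The genes described here are the sulfotransferases, sulfatases and glycosaminoglycan sulfation genes of the surf clam Mactra quadrangularis, a burrowing bivalve also known as Mactra veneriformis. They were chosen by the wording of the annotation in the deposited gene table. The wording rule used no measured values but was set with earlier results of these data known. It took every gene whose description, with the species name removed, named a sulfotransferase, a sulfatase, heparan, chondroitin or the sulfate donor phosphoadenosine phosphosulfate (PAPS). The rule found 197 of 25145 genes. Each description is that of the closest described relative in another species, so it is a name by similarity and not a tested activity. The measurements are RNA-seq libraries of poly(A)-selected RNA from mantle, the shell-secreting tissue of bivalves. One group, labelled ocean acidification stress, had 3 libraries, and the other, labelled normal seawater control, had 3 libraries. The submitters' design text speaks of a high pH for the stressed clams, whereas acidified water has a low one, so the chemistry of the treated water is uncertain. The sources used here give no pH value, exposure time or clam age, do not explain the letter p of the library names, and leave the shell colour of these 6 libraries unstated. They also do not state whether each library is a separate clam, so p-values cover only the spread among these libraries, which may be technical.

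Sulfation is the transfer of a sulfate group from PAPS to an acceptor molecule. PAPS is made in the cytosol and carried into the Golgi apparatus, where membrane-bound enzymes sulfate the chondroitin, dermatan, keratan and heparan chains of proteoglycans, the sugars of mucins and glycolipids, and the tyrosines of secreted proteins. Sulfatases of the lysosome take the sulfate off again when these chains are broken down. A separate family of soluble enzymes, the cytosolic sulfotransferases, uses the same donor on small molecules such as phenols, steroids and foreign compounds. In molluscs, sulfated polysaccharides are components of mucus and of the organic matrix of the shell.

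The libraries held between 28482358 and 37066703 counts. Fold changes below come from edgeR's quasi-likelihood test on the counts after TMM scaling between libraries, which sets changes relative to the bulk of genes, and CPM is the count relative to the TMM-adjusted library total. FPKM, which also divides by transcript length but has no TMM scaling, is given only as a mean over the 6 libraries, to compare levels between genes. Scaled by library size alone, all genes had a median log2 fold change of -0.33, in place of 0.00 after TMM. A list of mantle markers held 54 genes described as perlucin, tyrosinase, chitin synthase, nacrein or a carbonic anhydrase of any kind. Of these, 25 had enough counts to test, and the most abundant, the tyrosinase gene Mve11G003960, averaged 397 FPKM. In the edgeR fit 17 of the 25 lay above 0, or 68%, against 49.8% of all genes. An unadjusted p under 0.05 was reached by 4 on the higher side and 0 on the lower, or 16% and 0%, against 9.29% and 8.13% of all genes. The acidified libraries lay wholly above the controls in 6 and wholly below in 0, of 25, against 12.2% and 13.4% of all genes. Among these 6 was the perlucin-like gene Mve03G005040, of a shell matrix lectin family, with 145, 122 and 126 CPM in the acidified libraries, against 63.6, 47.2 and 72.1 CPM in the control libraries. Its log2 fold change was 1.10, while every other tested perlucin gene had overlapping groups and lay between -0.04 and 0.25. The summed level of the list overlapped: it ran from 2060 to 3175 CPM in the acidified libraries and from 1740 to 2702 CPM in the control libraries. Of the summed levels, only that of the mucous cell markers did not overlap between the groups: the 12 mucin genes summed to 113, 107 and 150 CPM in the acidified libraries, against 333, 292 and 556 CPM in the control libraries. Of 14 tested muscle genes 12 lay below 0. At an unadjusted p under 0.05 in edgeR 3 were lower, or 21.4% against 8.13% of all genes, and 0 higher. The tested muscle genes had a median transcript length of 3.98 kb, and the tested mucin genes 4.65 kb. Of all tested genes between 3.75 and 5.19 kb, 31.2% lay above 0. The muscle sum overlapped, as did those of cilia, digestive gland and germ line. The part of these cell types in the results below was not tested. In whole tissue, fewer cells of a type and less RNA per cell cannot be told apart.

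Of the 197 members, 135 passed the filter on low counts, 62 did not, and 19 of these had no count in any library. In edgeR's quasi-likelihood test, adjusted by Benjamini-Hochberg over all 17790 genes tested, 0 of the 135 passed, as did 0% of all genes, and the smallest adjusted p among the members was 0.118. At an unadjusted p under 0.05, 21 members were higher in the acidified libraries, which is 15.6% of those tested against 9.29% of all genes. On the lower side there were 10 members, 7.41% of those tested against 8.13% of all genes, and 6 without control replicate 1. Scaled by library size alone, 8 members were higher and 23 lower at that p, where 577 of all 17790 genes were higher and 3141 lower. DESeq2, another test on the same counts, called 10 members higher and 6 lower, and gave no adjusted p for 26 of the 135. It called 5.03% and 3.78% of the 13927 genes to which it gave an adjusted p. A log2 fold change above 1 was seen in 24 members and one below -1 in 9, where 7.81% and 8.93% of all genes had one. Of the 24 members, 10 were cytosolic sulfotransferases, 6 carbohydrate sulfotransferases and 4 sulfatases, and of the 9, 3 were carbohydrate and 3 heparan sulfate sulfotransferases.

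**Figure D1:**
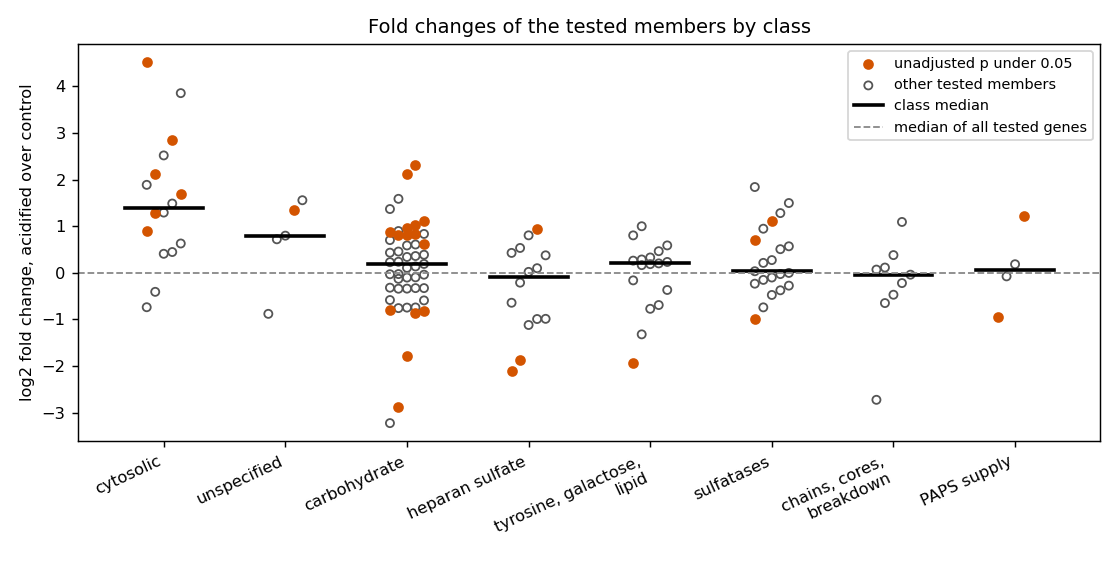
Log2 fold change (acidified over control, vertical axis) of each of the 135 tested members, by class along the horizontal axis. Filled points have an unadjusted p under 0.05, bars are class medians and the dashed line is the median of all tested genes; the cytosolic class has its median at 1.39 and the carbohydrate class at 0.19.

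The cytosolic sulfotransferases had the highest median log2 fold change of the 8 classes, 1.39 over 16 tested members, against 0.00 over all genes tested. Of these 16, 14 lay above 0, or 87.5%, where 49.8% of all genes did. At an unadjusted p under 0.05 in edgeR, 6 were higher and 0 lower, or 37.5% and 0%, against 9.29% and 8.13% of all genes. DESeq2 called 5 higher and 0 lower, where it called 5.03% and 3.78% of all genes, and gave no adjusted p for 5 of the 16. A log2 fold change above 1 was seen in 10, and in 7.81% of all genes. The acidified libraries all lay above the control libraries in 5 members and below them in 0, where 12.2% and 13.4% of all genes were so placed. None of the 16 was under the filter's count level in all control libraries. The other 4 of the 20 genes were hardly counted. They were 2 genes like sulfotransferase 4A1 and 2 genes resembling sulfotransferase family cytosolic 1B member 1, Mve16G002620 and Mve16G002660, which had 87 and 85 counts in acidified replicate 3 and no count in any other library.

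Within the class, the 8 genes described as sulfotransferase 1 family member D1-like, relatives of enzymes that sulfate phenols and amines in vertebrates, had a median of 1.9, and all 8 lay above 0. The largest difference was at a pair of neighbours on one strand of chromosome 10. Mve10G000410 (1565350 to 1571729) had 6.30, 50.8 and 24.2 CPM in the acidified libraries, against 1.47, 0.813 and 1.24 CPM in the control libraries, a log2 fold change of 4.52 ± 0.75 (SE). The groups did not overlap, but acidified replicate 1 was well below the other acidified libraries. Its neighbour Mve10G000420 (1573424 to 1578970), the most abundant gene of the class at a mean of 47.5 FPKM, had 23.1, 200 and 202 CPM in the acidified libraries, against 27.4, 6.30 and 25 CPM in the control libraries. Here acidified replicate 1 lay among the controls, so the groups overlapped, with a log2 fold change of 2.86 ± 0.86. The adjusted p in edgeR was 0.118 for Mve10G000410 and 0.175 for Mve10G000420. In DESeq2 it was 1.74e-09 for Mve10G000410 and 0.047 for Mve10G000420. Reads may be shared between such close relatives, so their separate values are uncertain.

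The other D1-like genes were lower in level. Mve11G003840 on chromosome 11 (11213694 to 11221381) had 4.41, 9.31 and 5.56 CPM in the acidified libraries, against 1.59, 2.30 and 0.554 CPM in the control libraries, a log2 fold change of 2.12 ± 0.56. Mve11G000430 on the same chromosome had 6.91, 8.61 and 12 CPM in the acidified libraries, against 3.12, 4.34 and 1.11 CPM in the control libraries, a log2 fold change of 1.69 ± 0.50. In both genes every acidified library was above every control library. A further pair of neighbours on chromosome 11, Mve11G003640 and Mve11G003660, had log2 fold changes of 0.63 ± 0.60 and 2.52 ± 1.31, with overlapping groups. Mve11G003640 ranged from 0.27 without control replicate 1 to 1.67 without control replicate 2, and was 0.33 without control replicate 3 and 0.37 without acidified replicate 3, while Mve11G003660 was at 1.31 without acidified replicate 2. The remaining D1-like genes, Mve04G006850 and Mve11G002410, were at 1.29 ± 0.63 and 0.45 ± 0.25, the value of Mve11G002410 being 0.27 without acidified replicate 3.

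Of the relatives of steroid and phenol sulfotransferases, the estrogen sulfotransferase-like gene Mve05G009430 had 18.8, 22.4 and 27.3 CPM in the acidified libraries, against 9.91, 12 and 14.8 CPM in the control libraries. Its log2 fold change was 0.90 ± 0.24 and the groups did not overlap. Only 2 tested members of the class lay below 0. The estrogen sulfotransferase-like gene Mve16G011540 had 5.06, 10 and 10.6 CPM in the acidified libraries, against 16.7, 9.30 and 16.7 CPM in the control libraries. The sulfotransferase 1A1-like gene Mve16G006730 had 11.1, 32.5 and 29.0 CPM in the acidified libraries, against 46.5, 40.2 and 9.58 CPM in the control libraries. Both genes overlapped between the groups, with log2 fold changes of -0.74 ± 0.36 and -0.41 ± 0.60. The 6B1-like gene Mveptg000273l_1G000020, on an unplaced contig, had 9.90, 12 and 2.89 CPM in the acidified libraries, against 2.83, 3.87 and 3.48 CPM in the control libraries, a log2 fold change of 1.28 ± 0.50 with overlap. One member was carried by a single library: the family cytosolic 1B member 1-like gene Mve09G000070 had 995 counts in acidified replicate 3 and at most 79 in any other library. Its log2 fold change was 3.86 ± 2.30, and -1.12 without acidified replicate 3.

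Summed over all 20 genes, the cytosolic class reached 116, 381 and 388 CPM in the acidified libraries, against 131, 108 and 88.9 CPM in the control libraries, so acidified replicate 1 lay within the controls. Without the chromosome 10 pair the sums were 86.5, 130 and 161 CPM in the acidified libraries, against 103, 101 and 62.7 CPM in the control libraries, and the median of the 14 remaining tested members was 1.29. The 5 genes described only as sulfotransferase-like protein, whose type the annotation leaves unstated, had a median of 0.80, and 4 of the 5 lay above 0. The most abundant of them, Mve02G009400, had 17, 45 and 27.4 CPM in the acidified libraries, against 10.2, 14.3 and 10.8 CPM in the control libraries, a log2 fold change of 1.34 ± 0.36 with no overlap. Mve14G001330 was at 0.80 ± 0.40, and the only one below 0, Mveptg000268l_1G000510, was at -0.88 ± 1.25 with at most 0.728 CPM in any library.

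**Figure D2:**
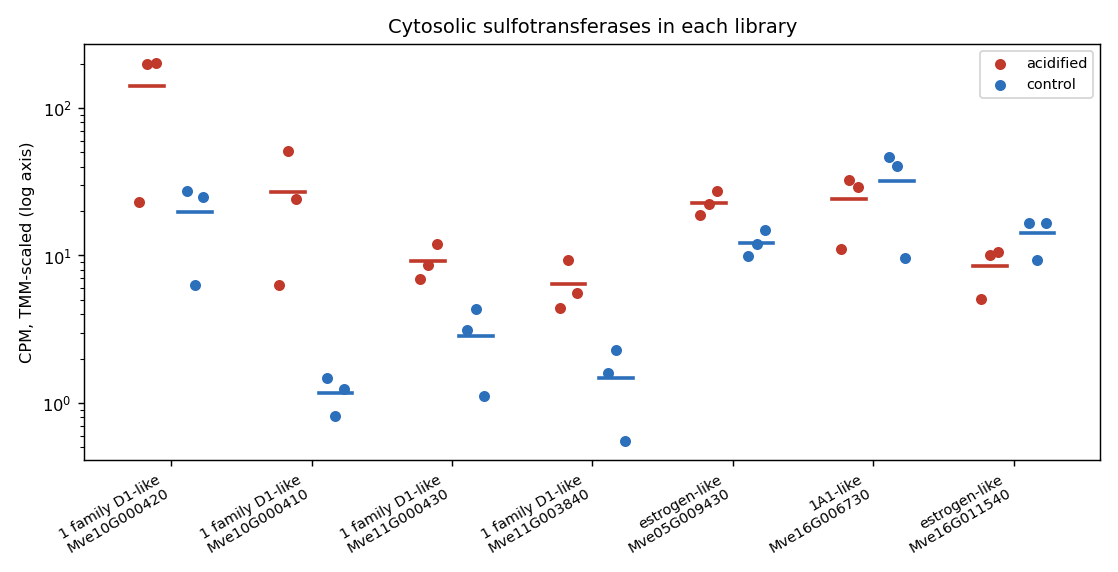
CPM after TMM scaling (log vertical axis) of the 7 cytosolic sulfotransferases named by the selection rule, with 1 point per library, acidified left of control, and a bar at each group mean. Acidified replicate 1, the leftmost point of each acidified trio, is the lowest acidified library in all 7 genes shown, and the leftmost gene and the 2 rightmost have overlapping groups.

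Short transcripts as a whole were higher in the acidified libraries, and this moves with the class. The tested cytosolic members had a median transcript length of 1.29 kb, recovered from the ratio of count to FPKM. All tested genes between 1.19 and 1.48 kb had a median log2 fold change of 0.21, and 62.2% of them lay above 0. With each library's trend over length removed, the cytosolic median was 1.22, and 14 of the 16 still lay above 0. The carbohydrate sulfotransferases, at a median of 1.60 kb, had a median of 0.12 in that fit. The median of all genes in that fit was 0.07, so the cytosolic median lay 1.15 and the carbohydrate median 0.04 above it, against 1.39 and 0.19 before the trend was removed.

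**Figure D3:**
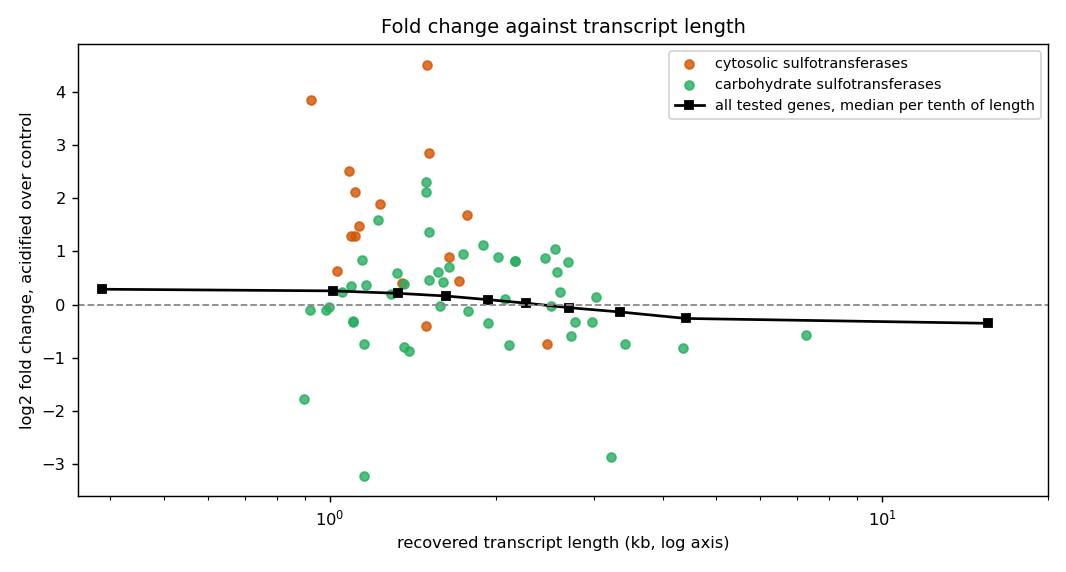
Log2 fold change (acidified over control) against recovered transcript length in kb (log axis) for the tested cytosolic and carbohydrate sulfotransferases, with squares at the median of all tested genes in each of 10 bins of length that hold like numbers of genes. The squares go from 0.29 in the shortest bin to -0.35 in the longest, and most cytosolic genes lie above them while carbohydrate genes lie on either side.

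The carbohydrate sulfotransferases, the Golgi enzymes of chondroitin, dermatan and keratan sulfation, were the largest class with 76 genes, of which 49 were tested and 10 had no count in any library. Their log2 fold changes went both ways, from -3.22 to 2.31, with a median of 0.19, which was -0.12 without TMM. Of the 49, 27 lay above 0, or 55.1%, against 87.5% in the cytosolic class. At an unadjusted p under 0.05 in edgeR, 10 were higher and 5 lower, or 20.4% and 10.2%, against 9.29% and 8.13% of all genes. Without control replicate 1 there were 2 lower. DESeq2 called 3 each way, where it called 5.03% and 3.78% of all genes, and gave no adjusted p for 7 of the 49. The acidified libraries lay wholly above the controls in 7 members and wholly below them in 9, of 49, against 12.2% and 13.4% of all genes. Their summed level overlapped between the groups, at 517, 452 and 627 CPM in the acidified libraries, against 594, 507 and 504 CPM in the control libraries. Split by the pathway in the table, the 28 tested genes of chondroitin or dermatan sulfate synthesis had a median of 0.12, and the 15 of keratan sulfate synthesis had a median of 0.23.

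On the higher side, the smallest p belonged to a carbohydrate sulfotransferase 3-like gene, Mve16G013060 (chromosome 16, 38175206 to 38185048), a relative of an enzyme that adds sulfate to position 6 of chondroitin. It had 3.20, 4.13 and 3.69 CPM in the acidified libraries, against 0.850, 0.897 and 0.475 CPM in the control libraries, a log2 fold change of 2.31 ± 0.42 (adjusted p = 0.118 in edgeR and 0.000237 in DESeq2). It sits in a run of 4 neighbouring members on chromosome 16, and the only other one tested, Mve16G013050, was at -0.04 ± 0.42, and at 0.39 without control replicate 3. The carbohydrate sulfotransferase 13 relative Mve10G011090, of a chondroitin 4-O-sulfation enzyme, was among the most even genes of the list, with 28.1, 27.7 and 28.7 CPM in the acidified libraries, against 14.3, 16.2 and 17.8 CPM in the control libraries, a log2 fold change of 0.80 ± 0.18. A carbohydrate sulfotransferase 15-like gene, Mve01G003930, had 12.6, 16.9 and 22.7 CPM in the acidified libraries, against 9.03, 8.10 and 6.81 CPM in the control libraries. Carbohydrate sulfotransferase 8 acts on the N-acetylgalactosamine of glycoproteins in vertebrates, and its relative Mve14G014320 had 12, 11.5 and 11 CPM in the acidified libraries, against 7.36, 7.57 and 7.60 CPM in the control libraries. In these 4 genes the groups did not overlap.

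On the lower side stood 3 relatives of carbohydrate sulfotransferase 11, which sulfates position 4 of chondroitin. A pair of them are neighbours on chromosome 2, on one strand. Mve02G005230 (15431571 to 15435949) had 1.03, 1.20 and 0.700 CPM in the acidified libraries, against 3.80, 2.27 and 3.98 CPM in the control libraries, a log2 fold change of -1.78 ± 0.44. Its neighbour Mve02G005220 (15385757 to 15419365) had 5.91, 5.91 and 6.46 CPM in the acidified libraries, against 14.3, 8.18 and 11 CPM in the control libraries, a log2 fold change of -0.87 ± 0.26. The most abundant gene of the class, Mve07G013190 on chromosome 7, averaged 34.9 FPKM. Its CPM was 23.1, 40.7 and 36.9 in the acidified libraries, against 57.7, 56.7 and 60.3 in the control libraries, a log2 fold change of -0.80 ± 0.24. All 3 had groups that did not overlap. Not every relative went this way: among the 8 tested carbohydrate sulfotransferase 11 relatives the median was 0.25, but it turned to -0.26 when acidified replicate 3 was left out, to -0.14 when acidified replicate 2 was, and to -0.09 when scaled by library size alone. Of these, Mve11G012700 stood at 2.12 ± 0.82, or 0.90 without acidified replicate 3, which held 28 CPM against 2.28 and 8.92 CPM in the other acidified libraries. The carbohydrate sulfotransferase 15-like gene Mve13G004830 had 0.961, 0.657 and 0.382 CPM in the acidified libraries, against 12, 1.23 and 1.37 CPM in the control libraries. Its log2 fold change of -2.87 ± 0.98 rested on control replicate 1 and was -0.96 without it. The largest negative value of the class, -3.22 ± 1.43 for the sulfotransferase 5-like gene Mve17G003290, rests on 0, 0 and 5 counts in the acidified libraries, against 20, 13 and 27 counts in the control libraries.

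By closest relative, 3 of the 4 tested genes like carbohydrate sulfotransferase 14, the dermatan 4-O-sulfation enzyme, lay above 0. Of the 4, 2 were higher at an unadjusted p under 0.05 in edgeR, against 9.29% of all genes. The acidified libraries lay wholly above the controls in 2 of the 4, against 12.2% of all genes. They lay wholly below in the 1 gene under 0, at -0.58, against 13.4% of all genes. The 14 tested genes like carbohydrate sulfotransferase 3 had a median of -0.03, with 6 above 0. The 10 like carbohydrate sulfotransferase 15, an enzyme of doubly sulfated chondroitin, had a median of -0.06, with 4 above 0. Leaving out single libraries moved the sulfotransferase 3 median between -0.08 and 0.31, and it stayed below 0 only without acidified replicate 3. The sulfotransferase 15 median was 0.11 without acidified replicate 3 and below 0 without any other library.

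**Figure D4:**
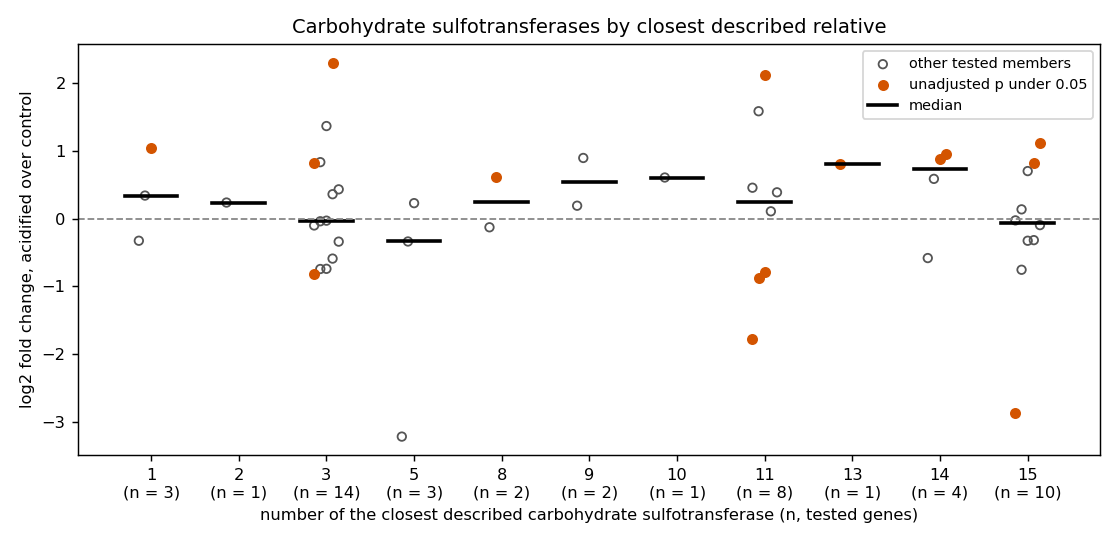
Log2 fold change (acidified over control) of the tested carbohydrate sulfotransferases, grouped along the horizontal axis by the number of their closest described relative. Filled points have an unadjusted p under 0.05 and bars are medians; relatives of sulfotransferase 3, 11 and 15 have such points on both sides of 0.

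Heparan sulfate is built by a polymerase and then modified in order by an N-deacetylase/N-sulfotransferase and by 2-O-, 6-O- and 3-O-sulfotransferases. Of 29 genes for these modifying enzymes, 14 were tested and 5 had no count in any library. Of the 14, 7 lay above 0, with a median of -0.10, or 0.02 without control replicate 3. The 24 3-O-sulfotransferases were many but scarce, with 10 tested, 7 of them above 0. Their median of 0.24 was -0.09 when scaled by library size alone and -0.03 without control replicate 2. The pair with the smallest p, both like 3-O-sulfotransferase 6, stood lower in the acidified libraries. Mve09G013850 (chromosome 9, 44657331 to 44665181) had 3.35, 3.13 and 4.17 CPM in the acidified libraries, against 18.9, 16.8 and 10.2 CPM in the control libraries, 4.30-fold lower. Mve09G007010 (chromosome 9, 24786658 to 24793935) had 1.67, 1.08 and 1.14 CPM in the acidified libraries, against 5.32, 5.74 and 3.11 CPM in the control libraries, a log2 fold change of -1.86 ± 0.40. DESeq2 called both genes. Its adjusted p was 1.11e-06 for Mve09G013850, against 0.118 in edgeR, and 0.00304 for Mve09G007010, against 0.12 in edgeR. Over the alternatives, DESeq2 included, the adjusted p spanned 1.11e-06 to 0.303 for Mve09G013850 and 0.00304 to 0.305 for Mve09G007010. A 3-O-sulfotransferase 1-like gene, Mve15G000580, went the other way, with 14.7, 20.5 and 19.8 CPM in the acidified libraries, against 6.49, 10 and 12.3 CPM in the control libraries, a log2 fold change of 0.93 ± 0.29. The 3-O-sulfotransferase 5 gene Mve02G020680 was at 0.80 ± 0.56, and at 0.07 without acidified replicate 3, which held 4.23 CPM against 1.60 and 1.24 CPM in the other acidified libraries.

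The 4 tested enzymes of the earlier steps all lay below 0, with a median of -0.99, or -0.52 without acidified replicate 3. They are named here after their values were seen. The 2-O-sulfotransferase 1-like gene Mve14G013990 had 1.71, 1.39 and 0.541 CPM in the acidified libraries, against 2.44, 2.72 and 2.74 CPM in the control libraries, a log2 fold change of -1.12 ± 0.51. The N-deacetylase/N-sulfotransferase gene Mve01G013220 had 1.53, 2.05 and 0.636 CPM in the acidified libraries, against 2.69, 3.19 and 2.48 CPM in the control libraries, a log2 fold change of -0.99 ± 0.50. Neither gene overlapped between the groups, and neither reached an unadjusted p of 0.05, at 0.0607 and 0.0859 in the edgeR fit across all genes. The 6-O-sulfotransferases Mve15G000110 and Mve15G011140 stood at -0.99 ± 1.21 and -0.21 ± 0.42, and 1 of the 4 lay above 0 without control replicate 3. All of these genes were weakly expressed, at a mean of no more than 1.63 FPKM.

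Galactose-3-O-sulfotransferases sulfate the galactose of mucin-type and other sugar chains, and galactosylceramide sulfotransferases make the glycolipid sulfatide. With the 1 tyrosine sulfotransferase they came to 25 genes, of which 17 were tested. Only Mve15G008380, like galactose-3-O-sulfotransferase 3 (chromosome 15, 31478951 to 31483337), had an unadjusted p under 0.05 in edgeR, where 17.4% of all genes did. Mve15G008380 had 1.46, 0.850 and 1.14 CPM in the acidified libraries, against 5.01, 4.06 and 4.25 CPM in the control libraries, 3.84-fold lower. DESeq2 called it with an adjusted p of 0.000524, against 0.118 in edgeR, and the alternatives, DESeq2 included, spanned 0.000524 to 0.303. A run of 4 galactose-3-O-sulfotransferase genes side by side on one strand of chromosome 6 (34515774 to 34548468) had log2 fold changes between -0.37 and 0.59, with overlapping groups. A like run of 4 on chromosome 11 (37585767 to 37683473) had 2 genes with too few counts to test and 2 at 0.26 ± 0.23 and -0.69 ± 0.53. The galactosylceramide sulfotransferases Mve09G005460, the most abundant of the class, and Mve07G010670 differed in sign, at 0.46 ± 0.21 and -0.77 ± 0.38, and neither overlapped between the groups. The tyrosine sulfotransferase 1-like gene Mve11G004270, whose enzyme sulfates secreted proteins, had at most 1 CPM in any library and a log2 fold change of -1.32 ± 0.74.

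The mucous cell markers summed to a lower level in the acidified libraries, without overlap between the groups. The lower heparan and galactose sulfotransferases named above were picked by small p or after their values were seen. Of the tested galactose-3-O-sulfotransferases 9 of 13 lay above 0, as did 7 of 14 heparan sulfate sulfotransferases. Of the 12 mucin genes 0 were without any count and 8 were tested, 2 of them above 0 and 6 below. In the edgeR fit 3 had an unadjusted p under 0.05, all of them lower, or 37.5% against 8.13% of all genes. The most abundant of these, the mucin-2-like gene Mve09G004150, averaged 46.0 CPM in the acidified group and 252 CPM in the control group. With Mve07G005680, at a mean of 58.6 CPM in the acidified and 113 CPM in the control group, it made up most of the mucin sum. The 8 tested mucin genes had a median transcript length of 4.65 kb and a median log2 fold change of -1.05. All tested genes between 3.75 and 5.19 kb had a median of -0.26, and 31.2% of them lay above 0. The part of transcript length in the mucin values was not tested. The part of the mucous cells in the sulfotransferase differences was not tested.

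**Figure D5:**
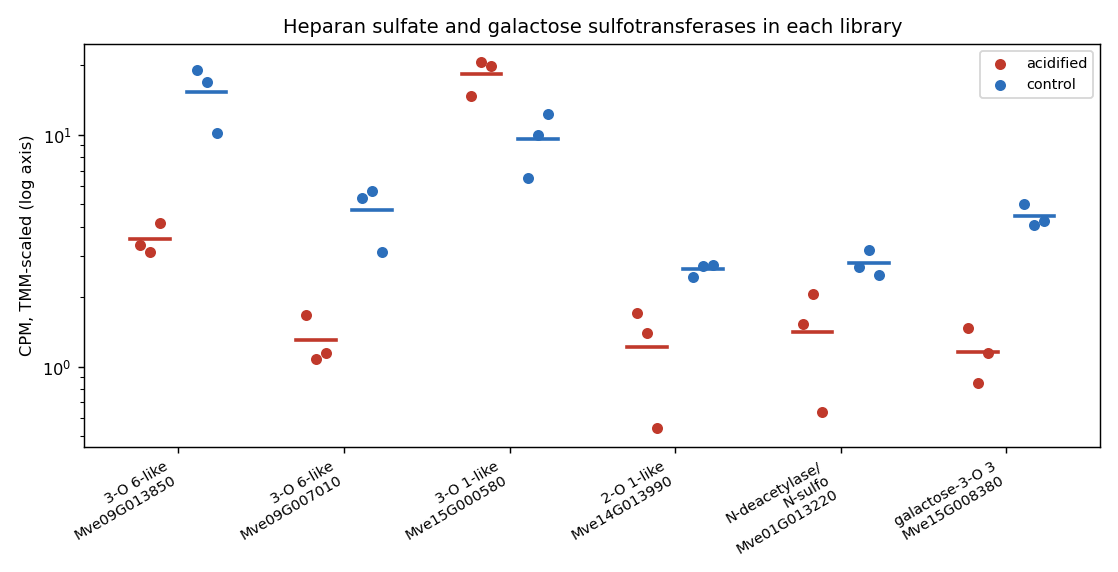
CPM after TMM scaling (log vertical axis) of 5 heparan sulfate sulfotransferases and a galactose-3-O-sulfotransferase, with 1 point per library, acidified left of control, and a bar at each group mean. The acidified points lie below the control points in 5 of the 6 genes and above them in the 3-O-sulfotransferase 1-like gene. The genes shown were picked by small p or after their values were seen, and over the whole heparan sulfate class 7 of 14 tested genes lay above 0.

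The sulfatases were 22 genes, of which 21 were tested, with a median of 0.04 and 11 above 0. The median was -0.26 when scaled by library size alone and -0.08 without control replicate 2. The smallest p belonged to a sulfatase-modifying factor 2-like gene, Mve04G000410 (chromosome 4, 891348 to 900125). Its relative factor 1 converts a cysteine of newly made sulfatases into the residue they need for catalysis, and factor 2 is a close relative without that activity in vertebrates. Mve04G000410 had 68.7, 57.7 and 73.6 CPM in the acidified libraries, against 36.5, 24.7 and 31.4 CPM in the control libraries, a log2 fold change of 1.11 ± 0.21. Its adjusted p was 0.118 in edgeR and 0.000375 in DESeq2. The factor 1-like gene Mve08G004330 stood at 0.57 ± 0.30 with overlapping groups. The iduronate 2-sulfatase-like gene Mve13G012000, for a lysosomal enzyme of heparan and dermatan breakdown, had 23.1, 21.9 and 13.6 CPM in the acidified libraries, against 13.6, 10.9 and 11.4 CPM in the control libraries, with the lowest acidified library just above the highest control. The 12 genes like arylsulfatase B, the lysosomal enzyme that removes position 4 sulfate from chondroitin and dermatan, had a median of -0.08 with 5 above 0. That median was 0.14 without control replicate 1, 0.19 without control replicate 3 and 0.09 with the length trend removed. The one with the smallest p, Mve07G004620, had 8.26, 3.24 and 5.91 CPM in the acidified libraries, against 9.54, 10.6 and 14.4 CPM in the control libraries, a log2 fold change of -0.99 ± 0.37. The next by p on the lower side, Mve14G007430, was at -0.47 ± 0.32 with overlap.

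The core proteins, chain enzymes and breakdown enzymes held no gene with an unadjusted p under 0.05 in edgeR among 9 tested, where 17.4% of all genes reached that p. The most abundant member of the whole list was a relative of the basement membrane heparan sulfate proteoglycan, Mve04G013690, at a mean of 367 FPKM. In CPM it had 1086, 1002 and 1143 in the acidified libraries, against 906, 1193 and 977 in the control libraries, so the groups overlapped, with a log2 fold change of 0.07 ± 0.17, or -0.25 when scaled by library size alone. A longer relative, Mve04G014060, had 48.6, 43.4 and 30.3 CPM in the acidified libraries, against 52.2, 65.5 and 51.7 CPM in the control libraries. Heparanase, the enzyme that cuts heparan chains, was at -0.04 ± 0.17 (Mve13G003990), and at 0.30 with the length trend removed. The heparan-alpha-glucosaminide N-acetyltransferase gene Mve12G006780, for a lysosomal enzyme of heparan breakdown, was at 0.38 ± 0.26. Mve10G002440, like chondroitin sulfate proteoglycan 4, and the proteoglycan gene Mve04G012720 had at most 1.27 CPM in any library, with log2 fold changes of -2.72 ± 1.53 and 1.09 ± 1.68. The 6 genes like chondroitin proteoglycan-2 were at most at a mean of 0.28 FPKM, and none was tested.

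The supply of PAPS was covered by 4 genes. The bifunctional PAPS synthase Mve01G010840, which makes the donor from sulfate and ATP, was the second most abundant member of the list, at a mean of 128 FPKM. Its CPM was 300, 340 and 324 in the acidified libraries, against 342, 219 and 287 in the control libraries, with overlapping groups and a log2 fold change of 0.19 ± 0.21, or -0.14 when scaled by library size alone. The PAPS transporters carry the donor into the Golgi. Transporter 2-like Mve03G011670 had 40.9, 15.6 and 12.6 CPM in the acidified libraries, against 10.4, 11.1 and 8.39 CPM in the control libraries, a log2 fold change of 1.21 ± 0.44, which was 0.50 without acidified replicate 1. Transporter 1-like Mve02G018290 had 1.85, 2.55 and 1.30 CPM in the acidified libraries, against 4.62, 2.97 and 3.46 CPM in the control libraries, a log2 fold change of -0.95 ± 0.40. The other transporter 2-like gene, Mve03G008380, was at -0.08 ± 0.35, and at 0.18 without acidified replicate 3.

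Other genes of the pathway, from a list of 52 that also holds sulfate transporters, chain-starting and chain-building enzymes and glypicans, had 37 tested genes, of which 3 were higher and 1 lower at that unadjusted p, or 8.11% and 2.70%, near or under the shares of all genes. Without its fucose, beta-(1,2)-, glucoside and xyloside xylosyltransferases, the list had 27 tested genes, 2 higher and 1 lower, or 7.41% and 3.7%. The smallest p of the whole list was that of Mve11G005290, like a fucose xylosyltransferase, which does not act on glycosaminoglycans. Its log2 fold change was 1.80 ± 0.48. A hyaluronidase-like gene, Mve04G001770, had 12.1, 10.2 and 9.67 CPM in the acidified libraries, against 8.04, 4.85 and 6.15 CPM in the control libraries. The glypican-6-like gene Mve15G007140, for a heparan sulfate core protein of the cell surface, had 4.49, 6.02 and 1.43 CPM in the acidified libraries, against 9.15, 7.06 and 11.4 CPM in the control libraries, a log2 fold change of -1.21 ± 0.50. The anion exchanger gene Mve08G009990 of solute carrier family 26 was at -0.55 ± 0.27.

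The members were spread over all 19 chromosomes, with the highest counts on chromosomes 11 and 16, 21 genes each, and 11 runs of 2 to 4 neighbouring members were found. The classes also differed in other annotation columns of the table: all 29 heparan sulfate modifying enzymes and 64 of the 76 carbohydrate sulfotransferases had a KEGG orthology entry, and 0 of the 20 cytosolic ones did. Golgi terms were attached to 24 carbohydrate, 7 heparan sulfate and 0 cytosolic genes. A further 35 genes carried an orthology entry found among the members but a description that the wording rule did not match. Of these, 18 were tested, with a median of 0.17. By edgeR's unadjusted p under 0.05, 1 was higher and 0 lower, or 5.56% and 0%, against 9.29% and 8.13% of all genes. Their adjusted p values all missed 0.05, as did those of all 17790 genes tested.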

How the data were processed

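Poly(A)-selected RNA of mantle was sequenced as strand-marked paired-end libraries, per the labels' protocols; whether counting used the strand is not stated. The submitters' processing notes name cutadapt 1.9, HISAT2 2.2.1, StringTie 2.1.6, DESeq2 and edgeR, with no genome build. The authors deposited 1 table of 25145 genes with raw read counts per gene and library, and with FPKM, the counts divided by transcript length and sequencing depth, as deposited by the authors. A further 12 columns, of 6 libraries absent from the sample list, were not used.

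Groups came from the treatment labels, 3 acidified and 3 control libraries. Counts were filtered with filterByExpr (a CPM of at least 0.31, that of 10 counts in a library of median size, in at least 3 libraries), scaled by TMM and tested with edgeR 4.0.16 (glmQLFit, glmQLFTest, group only) in R 4.3.3, with Benjamini-Hochberg adjustment over the 17790 genes tested and a threshold of 0.05. Standard errors are on the log2 scale. Transcript length in kb was recovered from the ratio of counts to FPKM. Class medians are descriptions, without a test. The procedure was tested on simulated data.

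Alternatives were DESeq2 1.42.0, library size scaling only, no filter, the replicate number as a block, limma 3.58.1 on log2(FPKM + 1) and log2(FPKM + 0.1) for genes with a mean FPKM of at least 1, removal of each library's length trend (loess, span 0.5), and leaving out each library. Counts of cytosolic and carbohydrate genes at an unadjusted p under 0.05, and a minimum mean of 1 CPM, were added after seeing the data. Members and lists were chosen with earlier results of these data known. Named in each class were the 2 genes with the smallest p per direction (4 in the carbohydrate and cytosolic classes) and the gene with the highest mean FPKM, with 2 per direction in the pathway list, and the 3 runs of neighbours with most members; other named genes were chosen after their values were seen. No sequences are shown.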

Additional observations from a re-analysis of the deposited data

How the results depend on the processing

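DESeq2 called 16 members and 1227 genes in all, against 0 in edgeR; no alternative other than DESeq2 and leaving out acidified replicate 1, with 2 genes in all, called any. With library size scaling only, 8 members were higher and 23 lower (carbohydrate class 2 and 12), and with limma at either pseudocount 8 and 19 (carbohydrate class 2 and 9). Of all genes, 577 were higher and 3141 lower of 17790 with library size scaling only. With limma at a pseudocount of 1, 522 were higher and 2743 lower of 13123. Of all genes at an unadjusted p under 0.05, the share on the higher side was 53.3% in the edgeR fit, 15.5% with library size scaling only, 16% with limma and 64.5% with the length trend removed. The carbohydrate median was -0.118 with library size scaling only, and -0.130 and -0.153 with limma at pseudocounts of 1 and 0.1. The cytosolic median was 1.039 with library size scaling only, 1.682 with no filter, and 0.512 and 0.584 with limma. Leaving out single libraries gave 16 to 21 members higher and 6 to 15 lower, carbohydrate genes 7 to 10 higher and 2 to 7 lower, a carbohydrate median of 0.110 to 0.293 and a cytosolic median of 1.155 to 1.656. Of the 43 genes chosen by the naming rule, 38 kept their sign in every alternative run; among other genes in the text, at least Mve09G000070 (-1.117 without acidified replicate 3), Mve13G003990 (0.300 with the length trend removed), Mve16G013050 (0.387) and Mve15G011140 (0.004, both without control replicate 3) did not. Mve01G010840 was at -0.141 with library size scaling only and -0.131 and -0.132 with limma. Mve04G013690 was at -0.247 and, with limma at both pseudocounts, -0.260, and between -0.012 and 0.195 without single libraries. Mve04G014060 was at 0.018 with the length trend removed. Without single libraries, Mve03G008380 ranged from -0.427 to 0.182 and Mve04G012720 from -0.003 to 2.182. The cause was not tested. Same-numbered libraries showed no sign of deviating together (r of 0.009, -0.044 and -0.007). Every acidified and control combination lay between -0.044 and 0.038, so the check cannot exclude a weak pairing by number. With the replicate block, 0 members were called, 17 were higher and 10 lower. The medians were then 0.184 for the carbohydrate and 1.202 for the cytosolic class. Genes at about 1 CPM or less have wide standard errors.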
